A study of Mus musculus with 2 samples.

Results

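The stretch of mouse chromosome 2 from 3 to 42 Mb (build GRCm38, also called mm10) was examined as a Hi-C contact map of *Lin28a* knockout embryonic stem (ES) cells. In Hi-C, chromatin is cross-linked and cut, neighbouring ends are ligated, and both sides of each ligation product are sequenced, which gives 1 contact per read pair. A pair belonged to the map when both ends fell in the stretch and lay at least 20 kb apart, which held for 922442 of the 11430966 knockout pairs analysed (8.07%), or 23652 per Mb. The stretch carries the starts of 417 protein-coding genes, and 5 of them were followed through all measurements: *Gata3*, a zinc-finger transcription factor of T cells and other lineages; *Vim*, an intermediate filament gene of mesenchymal cells; *Notch1*, the receptor of a cell-to-cell signalling pathway; *Lhx3*, a homeodomain factor of pituitary and motor neurons; and *Lmx1b*, a homeodomain factor of limb, kidney and midbrain.

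The study compared ES cells labelled wild-type with ES cells labelled *Lin28a* knockout, and the gene encodes an RNA-binding protein found in cytoplasm and nucleolus. Cells of both groups grew for 2 days with leukaemia inhibitory factor and inhibitors that hold the pluripotent state (LIF/2i), on a layer of mouse embryonic fibroblast (MEF) feeder cells. Knockout ES cells of the study were either clones made with CRISPR/Cas9 or lines taken from knockout mice, and the methods name E14 as the usual ES line, with V6.5 where stated, without saying which clone or line these libraries came from. The labels mention 2 replicates for each group, but 1 pair list per group was analysed, in which read names showed 2 sequencing runs and no replicate, so differences between groups have counting intervals only and no test against the spread between cultures. The wild-type list (5793078 pairs) reached position 90862049 of chromosome 1 and held 0 pairs with both ends in the chromosome 2 stretch, whereas the knockout list reached position 42080638 of chromosome 2. The cis map is therefore of knockout cells alone, and the libraries were set side by side only through contacts between chromosomes 1 and 2. Hi-C pairs do not tell feeder DNA from ES cell DNA, and the share of feeder cells was not tested. All intervals are 95% intervals for counting error and do not include variation between cultures; read pairs without molecular identifiers are also not independent molecules.

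In GENCODE release M21, *Gata3* (ENSMUSG00000015619) spans chr2:9857078-9890034 on the minus strand, *Vim* (ENSMUSG00000026728) chr2:13573927-13582826 on the plus strand and *Notch1* (ENSMUSG00000026923) chr2:26457903-26516663 on the minus strand. *Lhx3* (ENSMUSG00000026934) spans chr2:26200212-26208289 and *Lmx1b* (ENSMUSG00000038765) chr2:33560965-33640511, both on the minus strand. The outermost start of each gene placed it in a bin.

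Chromatin of mammalian nuclei divides into an A compartment, rich in genes and active marks, and a B compartment, poor in genes and often at the nuclear lamina, and regions of like kind contact each other over long distances. At a finer scale, contacts are enriched within domains whose edges are often held by the factor CTCF together with cohesin, which extrudes loops until it meets bound CTCF. Genes for lineage factors are mostly silent in ES cells, and many of their promoters are rich in CG dinucleotides and carry marks of Polycomb proteins.

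The reference sequence of the stretch is shown at the places on which the later measurements turn. The RefSeq table (GRCm38.p6) holds 300-base promoters of all 5 genes. Those of *Gata3*, *Vim* and *Lmx1b* are printed from 250 bases before to 50 bases after the start, 5′ to 3′ on the strand of the gene, because *Gata3* and *Vim* lay in B and the *Lmx1b* start lay in a domain boundary. The RefSeq starts differ from the outermost GENCODE starts given above but lie in the same 100 kb bin for each of the 5 genes. Capitals mark CG dinucleotides.
*Gata3*, chr2:9878551-9878850, minus strand: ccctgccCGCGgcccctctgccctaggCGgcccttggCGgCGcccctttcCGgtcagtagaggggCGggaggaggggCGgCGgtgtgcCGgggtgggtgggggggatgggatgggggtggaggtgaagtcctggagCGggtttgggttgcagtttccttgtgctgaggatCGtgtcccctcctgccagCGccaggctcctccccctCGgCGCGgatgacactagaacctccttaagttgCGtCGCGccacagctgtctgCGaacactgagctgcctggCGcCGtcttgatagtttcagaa
*Vim*, chr2:13574061-13574360, plus strand: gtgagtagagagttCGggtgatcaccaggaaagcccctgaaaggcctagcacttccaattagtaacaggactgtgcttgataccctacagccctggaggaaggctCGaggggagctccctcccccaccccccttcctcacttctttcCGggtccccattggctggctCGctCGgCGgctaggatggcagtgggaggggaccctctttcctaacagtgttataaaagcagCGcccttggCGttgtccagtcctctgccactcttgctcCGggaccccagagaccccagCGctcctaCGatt
*Lmx1b*, chr2:33641049-33641348, minus strand: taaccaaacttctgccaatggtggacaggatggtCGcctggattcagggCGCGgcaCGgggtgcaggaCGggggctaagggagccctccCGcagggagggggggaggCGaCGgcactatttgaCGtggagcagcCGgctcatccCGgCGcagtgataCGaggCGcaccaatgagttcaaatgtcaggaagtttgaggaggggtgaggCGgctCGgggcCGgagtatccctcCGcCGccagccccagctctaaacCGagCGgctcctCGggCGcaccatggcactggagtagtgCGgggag

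The *Gata3* promoter held 22 CG dinucleotides and the *Lmx1b* promoter 24, while the *Vim* promoter held 11. *Notch1* had 23, and the listed *Lhx3* promoters had 13 and 28. The median was 15 over the 468 promoters of protein-coding genes of the stretch, 17 for those in A and 12 for those in B. It was 7 over the 32851 promoters of the whole table, which were not limited to protein-coding genes, so that value is not a like comparison. The *Gata3* promoter, in B, thus lay within the range of the A-located genes, and *Vim* fell below the median of its own compartment.

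The bin with the *Lmx1b* start held 4 matches to the CTCF core consensus on either strand, and 9 were found when 1 bin of 100 kb to each side was added. The 4 matches in the bin and the single matches in the bins of the boundaries near *Ptgs1* and *Rsu1* are printed on the strand of the match, with 7 reference bases to either side. Capitals mark the match.
*Lmx1b* bin, chr2:33643280-33643292, minus strand: actatggCCAGCAGAGGGCGgagtgca
*Lmx1b* bin, chr2:33652699-33652711, plus strand: cacccctCCAGTAGAGGGCGcactctt
*Lmx1b* bin, chr2:33652980-33652992, plus strand: acgaaggCCAGCAGAGGGCGtcagatc
*Lmx1b* bin, chr2:33682415-33682427, plus strand: gttccagCCAGCAGATGGCAgcagaaa
*Ptgs1* bin, chr2:36214223-36214235, minus strand: gaagtgaCCACCAGGTGGCAgcatagg
*Rsu1* bin, chr2:13265109-13265121, minus strand: agtttgaCCAGTAGAGGGCAgggttaa

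In the *Lmx1b* bin the minus-strand match lay at the lower coordinate and the 3 plus-strand matches at higher coordinates. A match is a description of the reference letters and no measure of bound CTCF.

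The chromosome 2 map separated into long A and B stretches (the map of observed over expected contacts). The compartment track, the leading eigenvector of the correlation matrix of 250 kb bins signed so that A holds more genes, changed sign 12 times and gave 13 stretches, 6 of A and 7 of B. A took 59 of the 156 bins (37.8%). Most of the A sequence was in a single stretch of 11.25 Mb from 24.75 to 36 Mb, with 252 gene starts (22.4 per Mb), which held *Notch1*, *Lhx3* and *Lmx1b*. The longest B stretch ran for 11.75 Mb from 6.25 to 18 Mb with 40 gene starts (3.40 per Mb), and held *Gata3* and *Vim*.

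**Figure D1:**
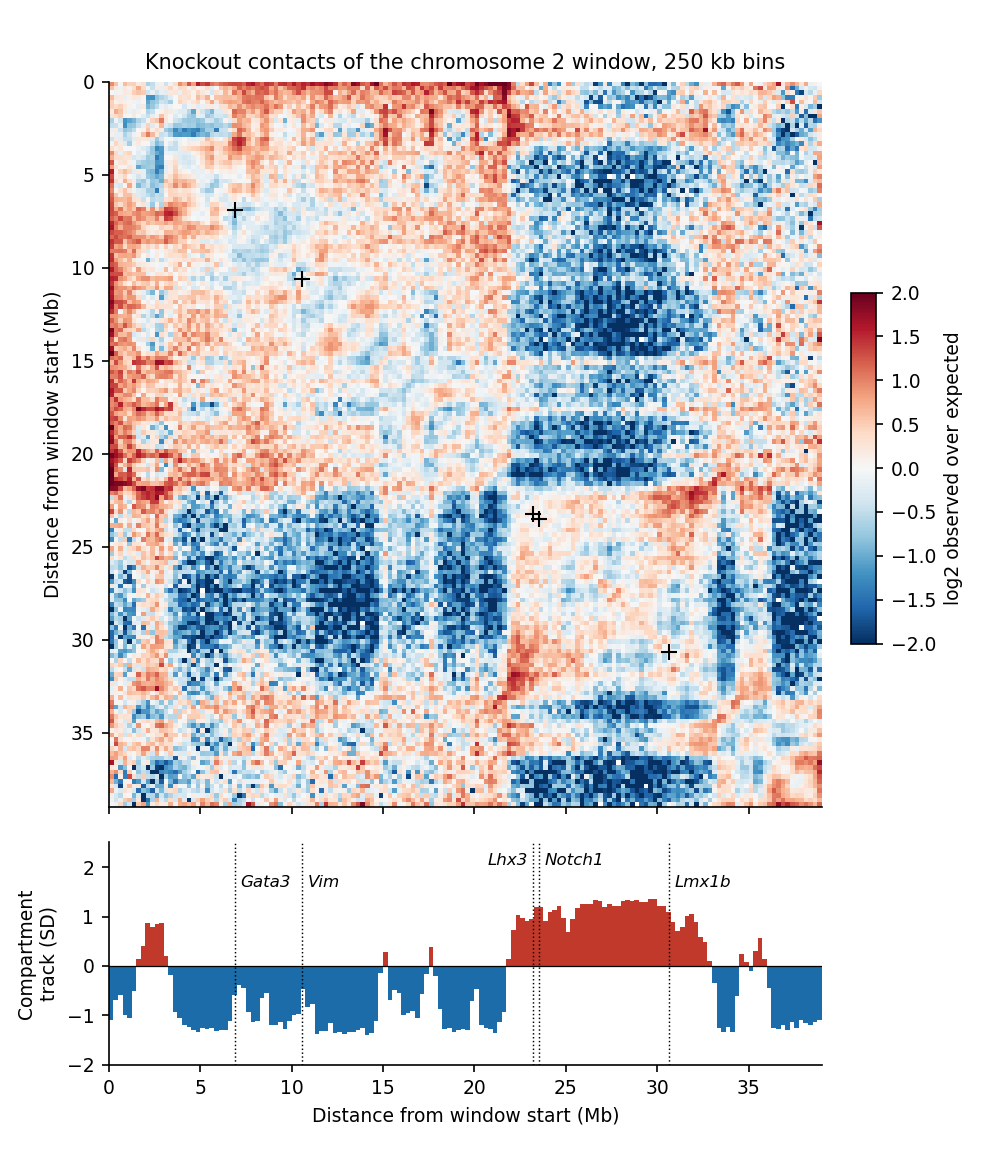
Contacts of the chromosome 2 window in knockout cells in 250 kb bins (upper panel, colour gives log2 of observed over expected contact at equal distance, both axes in Mb from the window start) and the compartment track in SD units (lower panel, red A, blue B); crosses and dotted lines mark the 5 gene starts. The red A block of 11.25 Mb with *Lhx3*, *Notch1* and *Lmx1b* is depleted of contacts with the blue B stretches to either side, and rows at the start of the window are raised.

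Compartment strength, the mean observed over expected contact within A and within B divided by that between A and B, was 3.36 (3.27 to 3.45) on chromosome 2. In the same library, the equally long window of chromosome 1 (756132 pairs, 172 gene starts) gave 2.34 (2.29 to 2.40), and a second chromosome 1 window from 45 to 84 Mb gave 2.47 (2.40 to 2.53). The contacts between A and B set the windows apart: their observed over expected value was 0.389 (0.379 to 0.398) on chromosome 2 and 0.582 (0.571 to 0.594) in the first chromosome 1 window, whereas A with A was lower on chromosome 2 (1.22 against 1.40) and B with B slightly higher (1.39 against 1.33). The chromosome 1 windows were also cut into more and shorter stretches, 28 in the first, with no A stretch longer than 5.5 Mb and no B stretch longer than 6.5 Mb. With 1 library, the difference of 1.02 in strength (0.91 to 1.13) was larger than counting error, and its spread between cultures is unknown.

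The long A stretch was depleted of contact with each of the 6 B stretches of 1 Mb or more, with values from 0.455 to 0.924. Its observed over expected contact was 0.590 (0.582 to 0.598) with the B stretch of *Gata3* and *Vim*, 0.564 (0.552 to 0.575) with the B stretch that adjoins it at 20.75 to 24.75 Mb, and 0.455 (0.440 to 0.469) with the gene-poor B stretch at 39 to 42 Mb. Contacts had another pattern for the small A stretch at 4.5 to 6.25 Mb, which holds *Camk1d*, a calmodulin-dependent kinase, and *Mcm10*, a replication factor. Its contact with the long A stretch was 1.49 (1.45 to 1.52), and its contact was also above 1 with 3 B stretches, at 1.58 (1.51 to 1.65) with that from 18.25 to 20.5 Mb, 1.34 (1.28 to 1.39) with that from 20.75 to 24.75 Mb and 1.16 (1.13 to 1.18) with that of *Gata3* and *Vim*. With the other 3 B stretches it was below 1, at 0.835 for that from 3 to 4.5 Mb, 0.867 for the one from 36 to 37.5 Mb and 0.716 for the one from 39 to 42 Mb. The small A stretch lies near the start of the window, where far contacts were raised in the map. The part of that position in its values above 1 was not tested. A B stretch of 1.5 Mb from 36 to 37.5 Mb carried 39 gene starts, 26.0 per Mb, the highest density of the 13 stretches, and 28 of them are olfactory receptor genes, which are expressed mainly in the nose. It was depleted of contact with the adjoining long A stretch (0.602, 0.582 to 0.622) and enriched with the B stretch of *Gata3* and *Vim* 18 Mb or more away (1.27, 1.24 to 1.31).

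Each bin also received a compartment score, the log2 ratio of its mean observed over expected contact with the strongest A bins to that with the strongest B bins, both taken as the outer 20% of the track and at least 2 Mb away. Because those A bins all lay in the long A stretch, genes of that stretch were scored for A by contacts within their own stretch. Scores ran from -2.28 to 2.15 with a median of -0.76. The 50 bins without a gene start had a median of -1.63, and the 53 bins with 3 or more had a median of 1.13. The track was signed by gene count, so the direction of this difference was set in advance. Track and gene count had a correlation of 0.52, against 0.63 in the first and 0.58 in the second chromosome 1 window. Among the 3 highest bins were that of *Dnm1*, which encodes a GTPase of synaptic vesicle uptake, and *Ciz1* (2.11, 1.86 to 2.36) and that of *Coq4* and *Urm1* (1.97, 1.72 to 2.21). The lowest were in the bin of *Hnmt*, a histamine-degrading enzyme, and the interleukin-1 family genes *Il1f6*, *Il1f8* and *Il1f9* (-2.28, -2.48 to -2.09) and in a pair of bins without gene starts at 39.5 Mb (-2.24) and 17.0 Mb (-2.16).

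Compartment scores are counted as above or below 0 only where their interval leaves out 0, also in the gene groups described later. Of the 5 genes, 3 had scores above 0, where 66.2% of coding genes and 35.3% of all bins did, and 2 had scores below 0, where 31.9% of coding genes and 60.3% of bins did, so the 5 genes were divided much as coding genes of the window are. *Lhx3* had a compartment score of 1.56 (1.36 to 1.75), *Lmx1b* of 1.52 (1.31 to 1.73) and *Notch1* of 1.42 (1.23 to 1.61). These values did not differ beyond counting error, with differences of 0.04 (-0.24 to 0.33) between *Lhx3* and *Lmx1b* and 0.09 (-0.19 to 0.37) between *Lmx1b* and *Notch1*. *Vim* followed at -0.33 (-0.52 to -0.14), which was 1.75 below *Notch1*, and *Gata3* at -0.66 (-0.85 to -0.46), lower than *Vim* by 0.33 (0.06 to 0.60).

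Both B-located genes lay near the upper end of their stretch, where the 47 bins ran from -2.16 to -0.21 with a median of -1.51. Counted from the highest score, *Vim* ranked 3 and *Gata3* ranked 7. Every bin ranked above *Gata3* there also held a gene start, while many bins of the stretch held none, so a high rank was not particular to these genes. The A-located genes were in the middle of their stretch of 45 bins, whose median was 1.53, with ranks of 20 for *Lhx3*, 24 for *Lmx1b* and 28 for *Notch1*. Gene content was also unlike, with 3 gene starts in the bin of *Gata3*, 2 in that of *Vim*, 6 in that of *Notch1*, 4 in that of *Lhx3* and 1 in that of *Lmx1b*.

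The contact profile of each locus differed in reach. Of the pairs of its bin, *Gata3* had 12.4% (11.8 to 13) at 10 Mb or more and *Vim* 10.2% (9.64 to 10.7), against 9.45% (8.92 to 10.0) for *Lhx3*, 8.28% for *Lmx1b* and 7.36% (6.90 to 7.84) for *Notch1*. The share under 1 Mb had the reverse order, from 49.6% for *Gata3* and 54.0% for *Vim* to 58.9%, 59.8% and 62.2% for *Lhx3*, *Lmx1b* and *Notch1*. At 10 Mb or more the intervals of *Vim* and *Lhx3* overlapped, as did those of *Lmx1b* (7.78 to 8.79) and *Notch1*. Under 1 Mb those of *Lhx3* (57.9 to 59.8) and *Lmx1b* (59.0 to 60.7) overlapped. Each bin had between 11236 and 12237 pairs. These shares also depend on where in the window a locus lies, for which no correction was made.

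The window as a whole had 11% of its pairs at 10 Mb or more (10.9 to 11.1), 1.67 points fewer (1.57 to 1.77) than the first chromosome 1 window at 12.7%. Against the second chromosome 1 window the gap was only 0.13 points (0.03 to 0.23), so the size of the gap depended on the window of chromosome 1. Pairs at 20 to 100 kb made up 17.0%, against 15.9% in the first and 16.7% in the second chromosome 1 window. Pairs at 100 kb to 1 Mb made up 42.8%, which lay between the 41.5% of the first and the 43.4% of the second. The gap in long contacts to the first window was at 10 to 30 Mb. At 20 to 30 Mb chromosome 2 had 3.07% of its pairs and the first chromosome 1 window 4.06%, while the second had 3.14%. At 30 Mb or more chromosome 2 was higher (0.778% against 0.656% and 0.684%). On logarithmic axes contact density fell with a slope of -0.85 from 100 kb to 1 Mb, -1.13 from 1 to 10 Mb and -0.53 beyond 10 Mb. The slopes were -0.80, -1.17 and -0.46 in the first chromosome 1 window and -0.81, -1.25 and -0.59 in the second. Beyond 10 Mb the slope of chromosome 2 thus lay between those of the chromosome 1 windows.

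**Figure D2:**
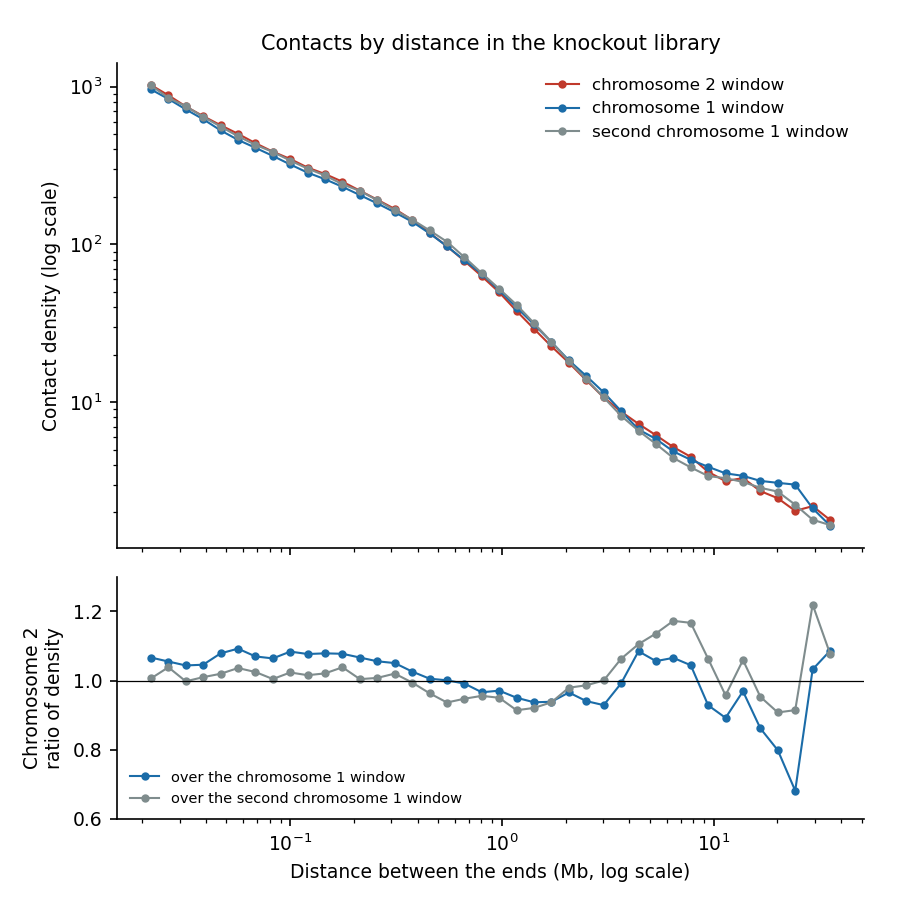
Contact density against the distance between the ends in the knockout library (upper panel, both axes logarithmic) for the chromosome 2 window and the 2 chromosome 1 windows, and the density of chromosome 2 divided by that of each chromosome 1 window (lower panel). The curves lie close together, and the ratio to the first chromosome 1 window falls to 0.682 near 24.3 Mb while the ratio to the second is 0.915 there.

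Insulation was scored per 100 kb bin from the contacts that span it within 500 kb to both sides, on a log2 scale relative to the mean of the window, so that low values mean few contacts across the bin. Chromosome 2 had 41 boundaries, defined as insulation minima of prominence 0.1 or above, and chromosome 1 had 39 and 43 in its windows. Boundary depth, by which the insulation score falls below its flanks at 500 kb, was on average -0.55 (-0.56 to -0.54) on chromosome 2 and -0.50 (-0.51 to -0.49) on chromosome 1. That order turned with a 300 kb square, so no difference in depth is claimed.

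The deepest boundaries of chromosome 2 enclosed the olfactory receptor cluster. The boundary at 36.2 Mb had a depth of -1.42 (-1.51 to -1.32) and lay in the bin of *Ptgs1*, the gene for cyclooxygenase 1, and the boundary at 37.3 Mb had a depth of -1.05 (-1.13 to -0.96) and lay in the bin of *Pdcl*. The bins of the 28 *Olfr* genes had insulation scores from -0.72, at the gene in the 37.3 Mb boundary bin, to 0.92, with a median of 0.55 over the genes rather than over bins. The highest score of the window (0.92) was in the bin of *Olfr3* and its neighbours. The next deepest boundaries were at 17.4 Mb, 281 kb from the start of *Nebl* (depth -1.02), at 22.8 Mb in the bin of *Pdss1* (-0.94) and at 13.2 Mb in the bin of *Rsu1* (-0.93). Across 8 boundaries the compartment track changed sign, and their mean depth was -0.78, against -0.49 for the 31 where it kept its sign. A gene start lay in 29 of 41 boundary bins (70.7%, 54.5 to 83.9), against 47.9% of all 380 bins with a score.

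The 5 genes differed in their place relative to boundaries (the profiles of insulation around the gene starts). The *Lmx1b* start lay 9.49 kb from the centre of a boundary bin at 33.6 Mb with a depth of -0.81, the 8th deepest of the window. *Notch1* also lay in a boundary bin, at 26.5 Mb, but this one was shallow at -0.21 and ranked 34. *Lhx3* was inside the domain that this boundary closes, 0.9 Mb long with 32 gene starts and with its other edge at 25.6 Mb among the lipocalin genes. *Gata3* was in a domain of 1.4 Mb between 8.6 Mb and the bin of *Taf3* at 10.0 Mb, with depths of -0.77 and -0.70 and with 3 gene starts in all. *Vim* was in a domain of 1.5 Mb between the bins at 13.2 Mb (*Rsu1*) and 14.7 Mb (nearest to *Cacnb2*, -0.56), with 11 gene starts.

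**Figure D3:**
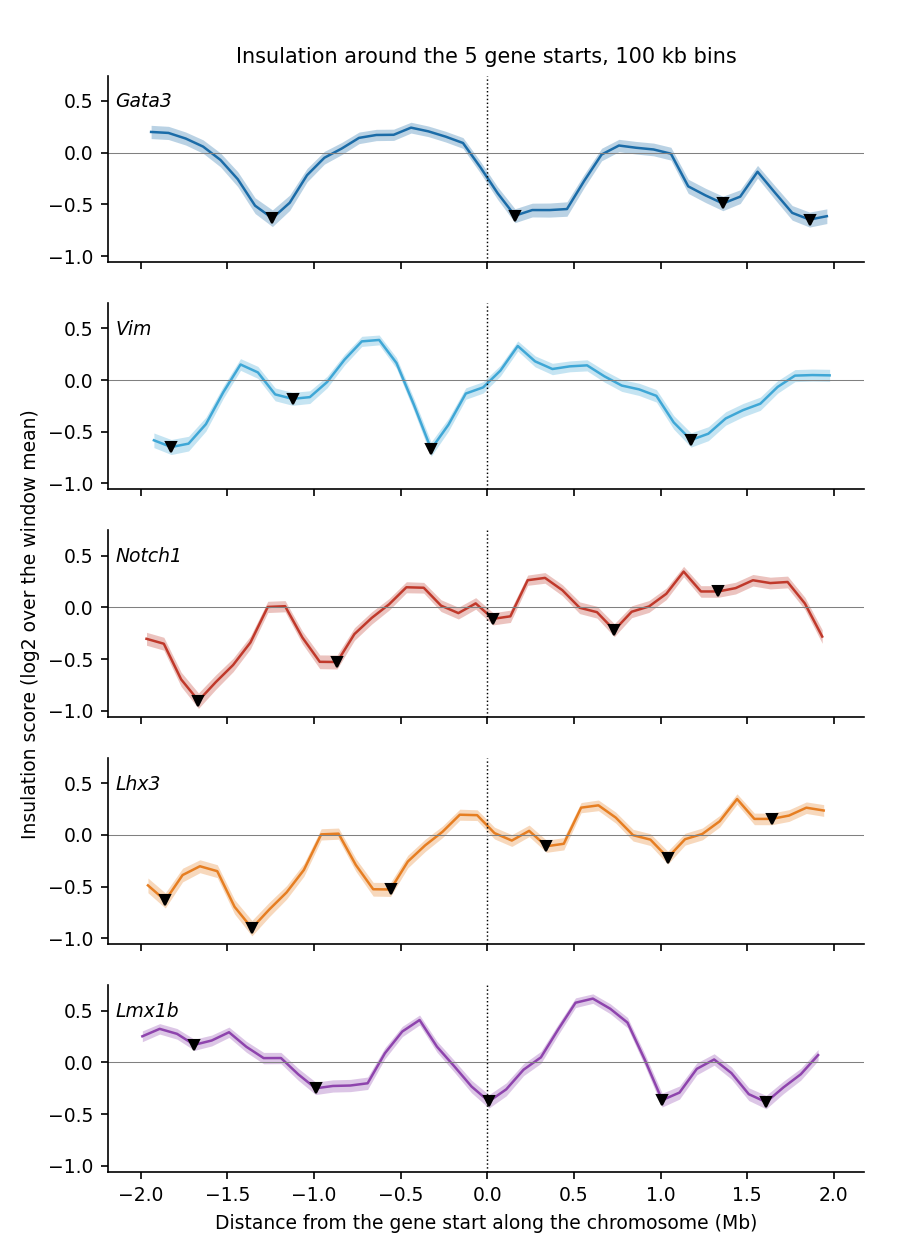
Insulation score (log2 over the window mean) in 100 kb bins against the distance from the start of each of the 5 genes; shading is the counting interval and triangles mark boundaries. The *Lmx1b* start sits in a minimum of -0.38 with higher scores to both sides, *Gata3* sits next to a minimum of -0.61, and *Notch1* sits in a shallow one of -0.11.

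Contacts of the gene starts with partners 100 kb to 1 Mb away were uneven at 3 of the 5 genes, where 82.7% of 405 coding genes and 80% of 370 bins of 100 kb were. For *Gata3*, 36.0% of these pairs went to higher coordinates (34.1 to 38.0), the side on which the *Taf3* boundary lies. *Notch1* had 38.9% (37.1 to 40.8) and *Lhx3* 43.5% (41.5 to 45.5). The shares of *Vim* (51.2%, 49.2 to 53.3) and *Lmx1b* (48.8%, 46.8 to 50.8) included an even split, so *Lmx1b* in its boundary contacted both sides about equally.

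CTCF core matches numbered 170 in the chromosome 2 window (4.36 per Mb) and 92 in the first chromosome 1 window (2.36 per Mb), and G or C bases made up 43.0% and 40.3%. A match lay in 21 of 41 boundary bins of chromosome 2 (51.2%, 35.1 to 67.1), against 30.3% (25.7 to 35.2) of all bins. With 1 bin to either side the shares were 73.2% (57.1 to 85.8) and 62.1% (57.0 to 67.0). Boundary bins also held gene starts more often, as given above, and the part of gene content in these shares was not tested. Boundaries without any match within 1 bin included the deep ones near *Nebl* and *Pdss1*.

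Between the 5 genes there are 10 pairs of loci, and by intervals that leave out 1, 2 of them had contacts above the mean at equal distance and 2 below it, with 18.9% and 24.8% of all pairs of different bins as background (the plot of contacts between the 5 loci). *Lhx3* and *Lmx1b*, 7.43 Mb apart, had 58 pairs between their 250 kb windows where 29.6 were expected, a ratio of 1.96 (1.49 to 2.53). *Notch1* and *Lmx1b* had 61 pairs and a ratio of 1.85 (1.41 to 2.37). *Vim* was below 1 with *Notch1* (0.578, 0.308 to 0.989, 13 pairs) and with *Lhx3* (0.530, 0.264 to 0.948, 11 pairs), and both upper limits passed 1 when reads of mapping quality under 30 were left out (1.02 and 1.07).

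Inside the long A stretch, window pairs at such distances also had ratios above 1. The median was 1.35 at the distance of *Lhx3* and *Lmx1b*, and 123 of 143 window pairs lay below their value. At the distance of *Notch1* and *Lmx1b* the median was 1.42, and 150 of 156 lay below. The 250 kb windows were moved in steps of 25 kb, so neighbouring window pairs overlap and these counts are not of independent pairs. *Notch1* and *Lhx3*, only 0.308 Mb apart, had 1171 pairs and a ratio of 1.04 (0.982 to 1.10). The *Notch1* window is centred in the bin of the shallow boundary and reaches to both sides of it, so this ratio does not measure contact across that boundary. With 100 kb windows *Lhx3* and *Lmx1b* had a ratio of 1.34 (0.537 to 2.75), so the enrichment was not detectable at that depth, and *Notch1* and *Lmx1b* had 2.88 (1.61 to 4.75).

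**Figure D4:**
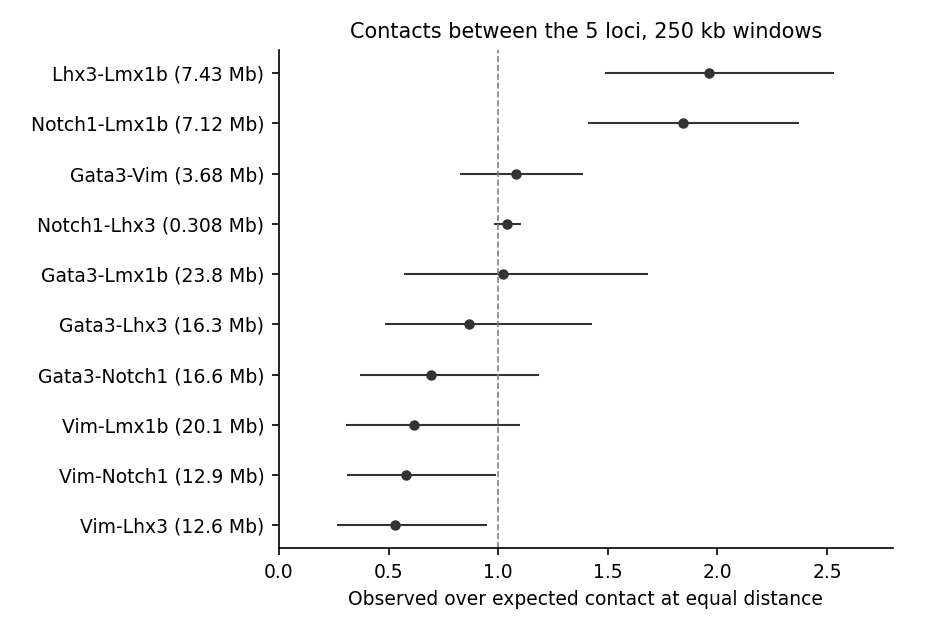
Observed over expected contact (horizontal axis, 1 is the mean at equal distance) between the 250 kb windows of the 10 pairs of gene starts in knockout cells, with the distance between the starts and exact Poisson intervals. The ratios of *Lmx1b* with *Lhx3* (1.96) and with *Notch1* (1.85) have intervals above 1, and those of *Vim* with *Notch1* and *Lhx3* have intervals below 1.

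The strongest partners of each locus beyond 1 Mb were mostly of its own compartment. The compartment track was made from the same map, so this is no separate result. These partners were picked for their high ratios, and the intervals do not allow for that choice. *Lmx1b* had its highest ratios with 3 bins between 25.25 and 26.25 Mb, between 2.16 and 2.32, the last of which holds *Lhx3*. *Lhx3* had 2.48 (1.87 to 3.23) with the bin of *Hc*, which encodes complement component 5, and *Notch1* had 1.90 (1.25 to 2.76) with the bin of *Camk1d* 21 Mb away. *Gata3* had 2.58 (2.19 to 3.03) with the bin of *Proser2* and *Echdc3*, 3.75 Mb away. That bin is the last of the small A stretch, and the interval of its compartment score included 0 (0.17, -0.002 to 0.34). The adjoining bin of *Usp6nl*, in the B stretch of *Gata3*, had 2.45 (2.08 to 2.87) with *Gata3*. *Vim* had 2.83 (2.08 to 3.75) with the bin of *Nmt2* and *Rpp38* at 3.25 Mb. It had 2.31 (1.55 to 3.32) with the bin of *Lhx6* and *Ndufa8* at 36.0 Mb. The bin at the start of the window, with *Fam171a1*, was among the 3 strongest partners of *Gata3*, *Vim* and *Lhx3* (2.51 to 2.94). In that bin 20% of reference bases are unknown and its neighbours on 1 side are outside the map, so those 3 ratios are not read as contacts. The 2.83 of *Vim* comes from the adjoining bin and is not read as a contact either. Both bins belong to the B stretch from 3 to 4.5 Mb, which had 1.78 (1.74 to 1.81) with the whole B stretch of *Gata3* and *Vim*.

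Among the listed genes of the window, 276 of all 417 coding genes (66.2%) lay in bins with a score above 0 and 133 (31.9%) in bins below 0, with a median of 1.19. Of the 14 listed lineage transcription factors, 9 were above and 4 below by their intervals, with a median of 0.89, and the interval of *Nr6a1* included 0 (0.15, -0.05 to 0.34). The highest were *Barhl1* (1.82), a homeodomain factor of the nervous system, and *Gfi1b* (1.76), a repressor of blood lineages, and the lowest were *Ptf1a* (-0.91), a factor of pancreas and cerebellum, and *Pax8* (-1.52), a factor of thyroid and kidney. *Ptf1a* lay in a boundary bin, as *Lmx1b* did, with a depth of -0.77. Housekeeping genes were above 0 in 21 of 25 cases with a median of 1.44, such as the ribosomal protein gene *Rpl12* at 2.15, and the 4 below were *Rpl35*, *Ndufa8*, *Stam* and *Atp5c1*.

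Of the 11 neuronal genes that start in the window, 6 were above 0, among them *Dnm1* (2.11) and *Camk1d* (1.15, 0.97 to 1.32), and 5 were below: *Celf2*, *Cacnb2*, *Plxdc2*, *Gpr158* and *Gad2*, from -1.98 to -1.52. Immune genes were above 0 in 7 of 12 cases, and the lowest was *Prkcq*, a T cell kinase (-1.38), in the B stretch that also holds *Gata3*. The *Olfr* genes were below 0 in 28 of 28 cases and the *Lcn* lipocalin genes above 0 in 10 of 10, but each cluster covers only 5 bins, so these genes share their values. Mesenchymal genes that would mark the feeder were spread over both signs, 3 above and 2 below of 6, and the interval of *Olfml2a* included 0 (score 0.15). Genes of 1 bin have 1 score, and the groups were not compared at matched position.

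The listed transcription factor genes formed 81 pairs at 2 Mb or more, of which 22 had contacts above the mean and 13 below by intervals that leave out 1, against 17.6% and 23.2% of all bin pairs at such distances. Pairs whose bins had the same track sign had a median ratio of 1.25 and pairs of opposite sign 0.94, where all bin pairs gave 1.21 and 0.62. The highest ratio was that of *Pax8* and *Lhx6*, 3.07 (2.32 to 3.99, 56 pairs), which lie 11.6 Mb apart in B bins near the 2 ends of the long A stretch. In the contact map this is the raised corner beyond the A block. The pair was picked as the highest of the 81, and its interval does not allow for that choice.

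The contacts of chromosome 2 with chromosome 1 allowed knockout and wild-type cells to be compared. Each 1 Mb window of chromosome 2 received a trans score, the log2 ratio of its pairs with A bins to those with B bins in the part of chromosome 1 held by both lists, relative to all 41924 such pairs in knockout and 52384 in wild-type cells. The knockout trans scores followed the chromosome 2 compartment track, which was made without these pairs (r = 0.970 over 39 windows), and wild-type scores did so as well (r = 0.978). These correlations are across neighbouring windows of 1 library, which are not independent.

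The signs of the 5 genes in trans were the same in both libraries. *Gata3* had a trans score of -0.37 (-0.53 to -0.20) in knockout and -0.23 (-0.38 to -0.09) in wild-type cells, and *Vim* had -0.39 (-0.56 to -0.23) and -0.30 (-0.45 to -0.16). *Notch1* had 0.71 (0.54 to 0.88) and 0.62 (0.47 to 0.77), *Lhx3* 0.73 (0.56 to 0.90) and 0.63 (0.48 to 0.78), and *Lmx1b* 0.68 (0.50 to 0.86) and 0.65 (0.49 to 0.80). The knockout value was farther from 0 than the wild-type value at each of the 5 genes, but with 500 kb windows the order turned at *Lhx3* (0.69 in knockout, 0.73 in wild-type) and *Lmx1b* (0.70 and 0.74), and without the smaller sequencing run it turned at *Lmx1b* (0.65 and 0.68). In the smaller runs alone it turned at *Gata3* (-0.56 and -0.57), *Notch1* (0.03 and 0.62) and *Lhx3* (-0.21 and 0.98), with wide intervals. The interval of the difference left out 0 at 0 of 5, where that of 15.4% of all windows did. The widest of these differences was -0.13 (-0.36 to 0.09) at *Gata3*. *Notch1* and *Lhx3* share most of their windows and are not separate evidence.

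**Figure D5:**
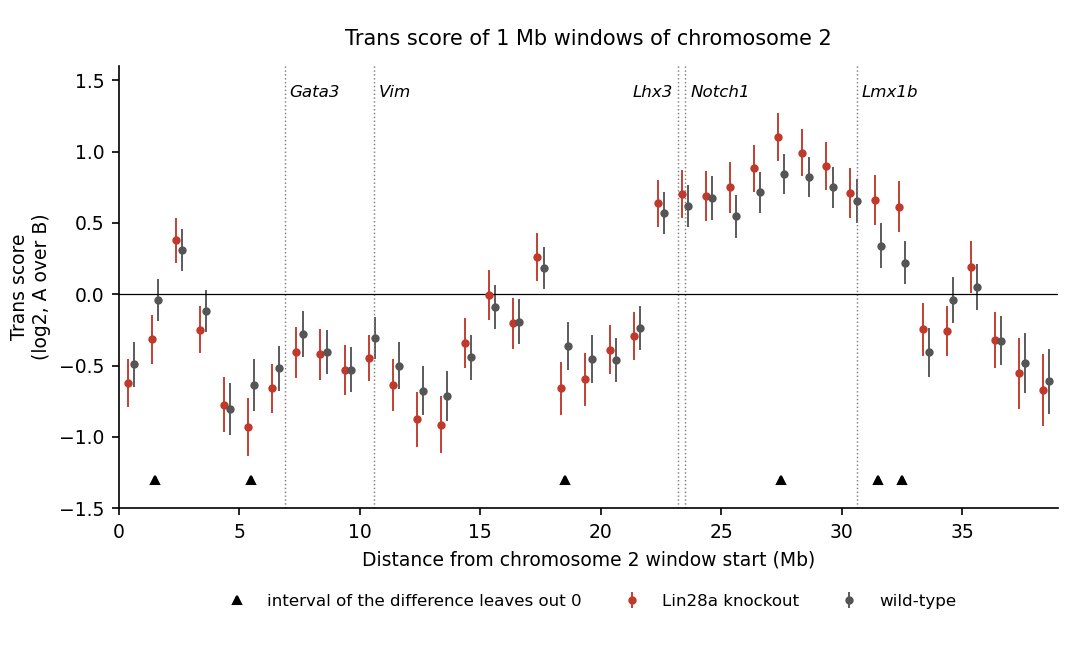
Trans score (log2 ratio of pairs with A over B bins of chromosome 1, relative to the library) of 39 windows of 1 Mb along chromosome 2, for *Lin28a* knockout and wild-type cells with counting intervals; dotted lines mark the 5 gene starts and triangles the 6 windows whose difference leaves out 0. Both libraries are above 0 over the long A stretch and below 0 in all but 3 of the other windows, and knockout values are mostly farther from 0.

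Outside the long A stretch, 3 windows had values above 0 in both libraries, at 5 to 6 Mb (0.38 in knockout, 0.31 in wild-type), 20 to 21 Mb (0.26 and 0.18) and 38 to 39 Mb (0.19 and 0.05). Over all 39 windows the knockout score had the larger absolute value in 33. The 6 windows whose interval of the difference left out 0 were 3 with a higher and 3 with a lower knockout score. The higher ones were all in the long A stretch, at 30 to 31 Mb (1.10 against 0.84), 34 to 35 Mb (0.66 against 0.34) and 35 to 36 Mb (0.61 against 0.22), and the lower ones were at 4 to 5 Mb (-0.32 against -0.04), 8 to 9 Mb (-0.93 against -0.63) and 21 to 22 Mb (-0.66 against -0.36). The windows were pooled by the sign of their mean track, 13 above and 26 below 0. Between these sets, the log2 odds ratio of contacts with A over B bins was 1.16 (1.10 to 1.22) in knockout and 0.92 (0.87 to 0.97) in wild-type cells. That track was made from knockout pairs alone, so wild-type windows were sorted by a knockout measure, and the effect of this was not tested. The difference of 0.24 (0.16 to 0.31) exceeded counting error. It compares 1 library with 1 library, and the smaller sequencing runs alone gave 0.11 (-0.23 to 0.44).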

How the data were processed

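Hi-C pairs came from 1 list per group. Per the submitters' processing notes, reads were called with CASAVA 1.8 and handled with Bowtie2 and HiC-Pro on mm10. The deposited lists give for each pair the positions of both ends and a mapping quality score per end, with no normalization by the authors, and both lists used here were partial. Counts of pairs were computed from them. The *Lin28a* deletion itself was not checked.

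Maps of pairs 20 kb or more apart were balanced by iterative correction (diagonal not used, bins under 20% of the median total left out) and divided by the mean at equal distance. Bins were 250 kb for compartments, 100 kb for insulation and 25 kb for contacts between loci. Shares have exact Clopper-Pearson intervals, locus contacts exact Poisson intervals, and other measures Poisson errors. The steps were tested on simulated maps, where counting noise raised compartment strength slightly. Python 3.11.15, NumPy 2.4.6, SciPy 1.17.1 and pandas 2.3.3 were used.

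The members, gene lists and settings were chosen with earlier results of these data known. Genes named were the 5 loci, listed genes, genes nearest to the 5 deepest boundaries and to boundaries beside a locus, genes of the 3 highest and 3 lowest bins, and genes of the 3 strongest partner bins of each locus, except for 1 item that is not reported here. *Mcm10*, *Barhl1* and other examples were picked from these after their values were seen. Alternatives were mapping quality 30, either sequencing run alone, other bins, squares, windows and thresholds, no balancing and the second chromosome 1 window.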

Additional observations from a re-analysis of the deposited data

How the results depend on the processing

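The signs of the compartment scores of all 5 genes, taken without their intervals, and the higher compartment strength of chromosome 2 held under every alternative run. In the smaller sequencing run alone the intervals of *Gata3* (-0.92 to 0.65) and *Vim* (-1.69 to 0.06) included 0. Strength on chromosome 2 was 4.09 in the smaller sequencing run alone, 3.24 with 500 kb bins, 4.22 with the outer 10% of bins, 2.62 with the outer 33%, and 3.55 without bins within 2 Mb of the window ends, an alternative chosen after seeing the data. Its excess over chromosome 1 was 1.55 in the smaller run, 1.13 with 500 kb bins, 0.84 with the outer 33%, 1.16 without balancing and 0.89 against the second chromosome 1 window. The share of pairs at 10 Mb or more was 10.9% at mapping quality 30, 11.1% in the smaller run and 9.41% with pairs under 20 kb included, and its gap to chromosome 1 was -1.52 points in the smaller run, -1.48 points with pairs under 20 kb and -0.13 points against the second window.

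Chromosome 2 had 27 boundaries with a 1 Mb square, 59 with a 300 kb square, 53 in the smaller run and 51 with 50 kb bins. Their mean depth was -0.46 in the smaller run, -0.32 with a 300 kb square, -0.44 with a 1 Mb square and -0.46 with 50 kb bins. The difference from chromosome 1 turned to 0.036 in the smaller run and to 0.0286 with a 300 kb square, and shrank to -0.0157 with 50 kb bins. The cause was not tested.

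Loci were limited by depth. In the smaller run (39270 pairs), 0 genes had a score below 0 by its interval, 0 pairs of loci were above and 0 below the mean at equal distance, 1 gene had a knockout trans score above 0 and 1 below, 2 differences between libraries left out 0, the *Lhx3* knockout trans score was -0.21 (-0.99 to 0.57), and the pooled trans difference was 0.11. Pairs of loci below the mean numbered 0 at mapping quality 30, 1 without the smaller run, 0 with 100 kb windows, 1 without balancing and 3 with 500 kb windows, and pairs above numbered 1 with 100 kb windows and 3 without balancing. No paired analysis was possible because each group has 1 library.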
